A study of Rattus norvegicus with 12 samples.

Results

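The genes described here are 10 regulators of fatty acid and mitochondrial metabolism in rat tissue labelled as left atrium. They are the peroxisome proliferator-activated receptors Ppara, Ppard and Pparg, their heterodimer partner Rxra, the PGC-1 coactivators Ppargc1a and Ppargc1b, the estrogen-related receptors Esrra and Esrrg, and the mitochondrial biogenesis factors Nrf1 and Tfam. They were chosen by symbol, and all 10 were found among the 21239 genes with counts and were tested in each of 4 comparisons. RNA-seq of this tissue gave 12 libraries, with 3 rats in each of 4 groups. The control groups WKY, a normotensive strain, and SHR, a strain that becomes hypertensive, were given saline at 7.5 ml/kg/day. Treated SHRs were given either valsartan, an angiotensin receptor blocker, at 30 mg/kg/day (ARB) or sacubitril/valsartan, in which a neprilysin inhibitor is added, at 60 mg/kg/day (ARNI). All rats were bought at 14 weeks of age and treated for 4 weeks. In the labels of the 6 saline libraries the strain words and the library names name opposite strains. The libraries were grouped by name, and if the strain words held instead, every direction given here between SHR and WKY would turn, and the controls of ARB vs SHR and ARNI vs SHR would be WKY rats. For the treated libraries the labels give WKY as the strain and SHR as the phenotype, and these libraries were taken as SHRs, as in the study.

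PPARs are nuclear receptors that bind fatty acids and, as heterodimers with RXR, switch on genes of fatty acid uptake, storage and oxidation. The estrogen-related receptors bind no known natural hormone and drive genes of the citrate cycle and oxidative phosphorylation, and the PGC-1 proteins are coactivators that both receptor families need for full activity. NRF1 acts on nuclear genes of the mitochondria, among them Tfam, whose product packages and transcribes mitochondrial DNA. In heart muscle, which burns mostly fatty acids, these factors set much of the capacity for oxidation.

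Promoters of the members are shown because the members are themselves transcription factors, or partners of such factors, some with known binding motifs. Sequences of 250 bases before to 50 bases after a start site (RefSeq, GRCr8) were held for 9 of the 10 members, all but Ppard, in 13 entries. The core of the NRF1 motif, GCGCATGC on either strand, lay in the promoters of 2 members, Ppara and Esrra, and in 2.47% of the 33469 promoters of the reference. The stretches from 150 to 51 bases before the start are given 5′ to 3′ on the strand of the gene, with the match in capitals. That of Ppara lies at chr7:118712457-118712556 on the plus strand and holds overlapping matches on both strands, and that of Esrra lies at chr1:213543356-213543455 on the minus strand and holds the match in reverse.
Ppara: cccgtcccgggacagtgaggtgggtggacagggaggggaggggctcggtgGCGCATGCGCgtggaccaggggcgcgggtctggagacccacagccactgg
Esrra: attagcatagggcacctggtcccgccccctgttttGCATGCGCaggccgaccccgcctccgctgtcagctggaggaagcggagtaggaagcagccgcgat
The SP1 box GGGCGG was found in 8 of the 9 members, all but Ppargc1a, and in 33.1% of all promoters. A member is counted here if any of its entries held the motif, while the shares are of single entries. The bases G and C made up 43.7% to 84.7% of the entries of members, beside a median of 51.7% over all promoters. The part of base content in these matches was not tested. The ERR element TCAAGGTCA (0.433% of all promoters), its core AAGGTCA (4.61%) and the PPAR element AGGTCANAGGTCA (0.0538%, or 0.415% in the relaxed form AGGNCANAGGNCA) were in none of the 13 entries. The nuclear receptor core AGGTCA, which is contained in the first 3 of these motifs, was found once, in an entry of Esrrg (16.2% of all promoters). A match is only a run of letters, and these data hold no binding.

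Total counts ranged from 11252361 to 15823525 per library. Counts of the members ranged from 41 for Pparg in ARB 1 to 2891 for Ppara in WKY 3, so that the counting error alone was 15.6% of the value for Pparg at its lowest and at most 9.71% at the lowest count of each other member. Levels are given as CPM, that is counts scaled to the library total, while fold changes come from counts scaled by TMM, a trimmed mean of the log ratios between libraries. With library totals alone, all genes together shifted between SHR and WKY, to a median of 0.15 on the log2 scale in place of 0.01. Transcript lengths were not used, so levels of different genes are not compared.

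The tissue label was checked against marker genes, and 6 libraries stood apart. The atrial light chain Myl7 was at 0.889 to 15.9 CPM in the 3 WKY libraries and at 9.67 CPM in ARNI 2, against 4478 to 11547 CPM in the other 8 libraries, and sarcolipin (Sln) was at most 0.444 CPM in WKY. The ventricular light chain Myl2 was at 3489 to 3776 CPM in the WKY libraries, 4161 CPM in ARNI 2, 2298 CPM in SHR 2 and 2573 CPM in ARB 3, and at most 24.2 CPM in the other 6. WKY and ARNI 2 thus nearly lacked these atrial markers, and SHR 2 and ARB 3 carried the markers of both chambers. The summed level of the 10 atrial markers was 157 to 366 CPM in the WKY group and 28008 to 77761 CPM in the SHR group, and that of the 8 ventricular markers was 50393 to 51018 CPM and 2375 to 15607 CPM. Kcna5, also on the atrial list, ran the other way, with 7.13 to 14.1 CPM in WKY and at most 5.60 CPM in SHR. Chamber marker levels and group cannot be told apart between SHR and WKY, since no WKY library had atrial marker levels. Markers of adipocytes stood out in 2 other libraries, with Adipoq at 192 CPM in ARB 2 and 61.7 CPM in ARNI 3 and at most 4.71 CPM elsewhere. Summed markers of other cells were highest in single libraries, with fibroblast markers at 4877 CPM in SHR 3 (1342 and 1736 CPM in the other SHR libraries), red blood cell markers at 3841 CPM in ARB 3 (410 and 482 CPM in the other ARB libraries) and smooth muscle markers at 716 CPM in ARNI 3 (190 and 216 CPM in the other ARNI libraries). Skeletal muscle markers summed to 2280 to 3213 CPM in the 6 libraries with high Myl2 and 631 to 1160 CPM in the others. That sum was nearly all Ckm, with 3066 of 3069 CPM in WKY 1, and each other marker was at most 5.83 CPM. The part of these markers in the results was not tested. In such bulk tissue fewer cells of a type and less RNA per cell cannot be told apart. Cd36, defective in some SHR colonies, was at 1382 to 1584 CPM in the WKY libraries and at 63.6 to 285 CPM in the other 9, with the 285 CPM in ARNI 2.

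**Figure D1:**
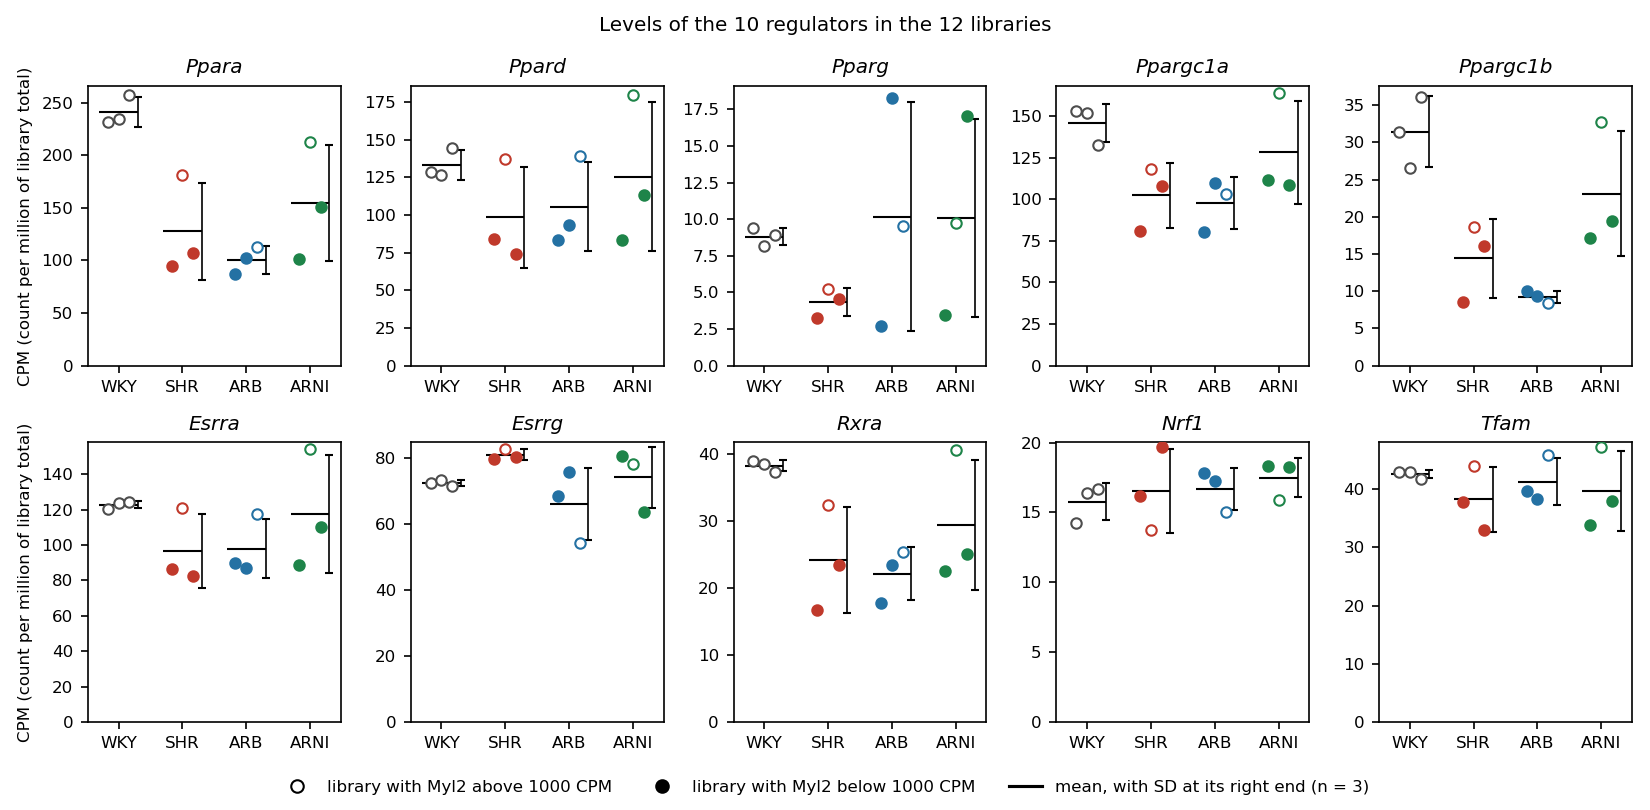
CPM of the 10 regulators (y axis, from 0) in the 12 libraries by group (x axis), with the mean and SD of 3 libraries as lines and open circles for libraries with Myl2 above 1000 CPM. Ppara, Ppargc1a, Ppargc1b and Rxra were higher in all WKY libraries than in any SHR library, and the highest ARNI point of all 4 is the open circle of ARNI 2.

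The first comparison asked how the regulators differed between untreated hypertensive and normotensive rats. Of the 10 members 4 fell in the SHR group, namely Pparg, Ppargc1b, Ppargc1a and Ppara, and none rose (quasi-likelihood test of edgeR, adjusted by Benjamini-Hochberg over 13794 genes, adjusted p at most 0.05). Among all genes tested 20.6% were called, 8.26% lower and 12.3% higher, or 1139 genes lower of 2837, against 867 lower of 3427 with library totals alone. By the study's thresholds, which also ask for a change of 1 or more on the log2 scale, 3 members were DEGs (Ppara, Pparg and Ppargc1b), against 3.35% of all genes lower. The highest SHR value was below the lowest WKY value for 5 members, as for 15.9% of the genes tested, and the reverse held for 1 member, as for 33.7%. The median log2 fold change of the members was -0.60, beside 0.01 for all genes. The calls depended on single libraries, among the members as among all genes. With any 1 of the WKY libraries left out 0 members were called (2.93% to 3.51% of all genes), without SHR 1 there were 2 (6.86%) and without SHR 3 there was 1 (18.0%). Without SHR 2, the SHR library with ventricular markers, 8 of the 10 were called, all lower, and Esrrg and Nrf1 were not, while 37.8% of all genes were called, 18.6% lower.

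Ppara encodes the receptor that drives fatty acid oxidation in heart and liver. Levels were 231, 234 and 257 CPM in WKY and 94.3, 181 and 107 CPM in SHR. The groups did not overlap, and SHR 2 lay between the other SHR libraries and WKY. The mean was 241 ± 14.2 CPM in WKY and 128 ± 46.6 CPM in SHR (SD, n = 3 libraries), a log2 fold change of -1.04 (SE 0.28, adjusted p = 0.0429, edgeR). Without SHR 2 it was -1.43 (SE 0.10, adjusted p = 2.40e-04, edgeR). Ppara, whose promoter stretch is printed above, lost its call without SHR 1 (adjusted p = 0.120, edgeR) and without SHR 3 (adjusted p = 0.0834, edgeR).

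Pparg encodes the master receptor of adipocytes and is scarce in heart muscle cells. It was at 9.38, 8.17 and 8.89 CPM in WKY and 3.28, 5.20 and 4.54 CPM in SHR, from 49 to 110 reads per library. All SHR libraries lay below all WKY libraries, and the log2 fold change was -1.16 (SE 0.22, adjusted p = 0.0182, edgeR). The adipocyte hormone Adipoq was at 0 in WKY 1, WKY 2, SHR 1 and SHR 3, at 0.394 CPM in SHR 2 and at 4.71 CPM in WKY 3. The summed level of the 9 adipocyte markers was 179 to 212 CPM in WKY and 171 to 223 CPM in SHR, so that it did not separate the groups. Most of that sum was Lipe and Cidea, at 105 and 77.0 CPM in WKY 1 and 95.2 and 120 CPM in SHR 1. It could therefore not show a small difference in the other markers. Pparg was called in 7 of 12 alternative settings, with adjusted p from 3.50e-04 to 0.233 (edgeR and DESeq2).

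Ppard, the more widely expressed receptor of the family, was at 128, 127 and 144 CPM in WKY and 84.4, 137 and 74.2 CPM in SHR. SHR 2 lay within the WKY range and the other SHR libraries well below it. The log2 fold change of -0.56 did not pass the test (SE 0.27, adjusted p = 0.168, edgeR), and without SHR 2 it was -0.91 (SE 0.13, adjusted p = 0.00275, edgeR).

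Rxra, the partner that every PPAR needs to bind DNA, was at 38.9, 38.5 and 37.2 CPM in WKY and 16.7, 32.3 and 23.4 CPM in SHR. The groups did not overlap, but the SHR values spread widely. The log2 fold change was -0.79 (SE 0.24, adjusted p = 0.0617, edgeR), just outside the threshold, and DESeq2 called it (adjusted p = 0.0165). Without SHR 2 it was -1.11 (SE 0.13, adjusted p = 0.00120, edgeR).

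The PGC-1 coactivators both fell. Ppargc1a, which is induced by exercise and cold, was at 153, 152 and 132 CPM in WKY and 80.7, 118 and 108 CPM in SHR. No SHR library reached the lowest WKY library, and the log2 fold change was -0.64 (SE 0.17, adjusted p = 0.0397, edgeR), under the study's threshold for DEGs. With library totals alone it was -0.51 (adjusted p = 0.0543, edgeR). Ppargc1b, its close relative, was at 31.5, 26.6 and 36.2 CPM in WKY and 8.49, 18.7 and 16.1 CPM in SHR. The groups did not overlap, and the log2 fold change of -1.26 was the largest among the members (SE 0.30, adjusted p = 0.0324, edgeR). Ppargc1b was also the only member called in the fit of all 12 libraries, which share 1 estimate of the spread (adjusted p = 0.0464, edgeR).

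The estrogen-related receptors did not pass the test. Esrra, the main ERR partner of PGC-1 in oxidative tissue, was at 120, 124 and 124 CPM in WKY and 86.6, 121 and 82.6 CPM in SHR. SHR 2 lay within the WKY range, and the log2 fold change was -0.47 (SE 0.19, adjusted p = 0.114, edgeR), or -0.71 without SHR 2 (SE 0.10, adjusted p = 0.00238, edgeR). Esrrg, which is abundant in heart and skeletal muscle, was at 72.5, 73.4 and 71.5 CPM in WKY and 79.7, 82.7 and 80.2 CPM in SHR. These plain CPM values did not overlap, with SHR higher, but on the TMM scale the log2 fold change was 0.03 (SE 0.09, adjusted p = 0.853, edgeR). With library totals alone it was 0.16 (SE 0.08, adjusted p = 0.161, edgeR), beside the 0.15 to which that scaling moved the median of all genes. The count of Esrrg relative to that of Esrra, which needs no scaling, was 0.576 to 0.601 in WKY and 0.685 to 0.971 in SHR, so that the groups did not overlap, and it was 0.461 to 0.871 in ARB and 0.506 to 0.906 in ARNI. A ratio shows unequal change of both genes and not which of them moved.

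The mitochondrial biogenesis factors did not pass the test either. Nrf1 was at 14.2, 16.4 and 16.7 CPM in WKY and 16.2, 13.7 and 19.7 CPM in SHR, with overlapping groups. Its log2 fold change was -0.07 (SE 0.14, adjusted p = 0.718, edgeR), and turned to 0.07 with library totals alone. Tfam was at 43.0, 42.9 and 41.8 CPM in WKY and 37.7, 44.0 and 33.0 CPM in SHR. SHR 2 lay above all WKY libraries, and the log2 fold change was -0.28 (SE 0.15, adjusted p = 0.202, edgeR), or -0.43 without SHR 2 (SE 0.11, adjusted p = 0.0259, edgeR).

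**Figure D2:**
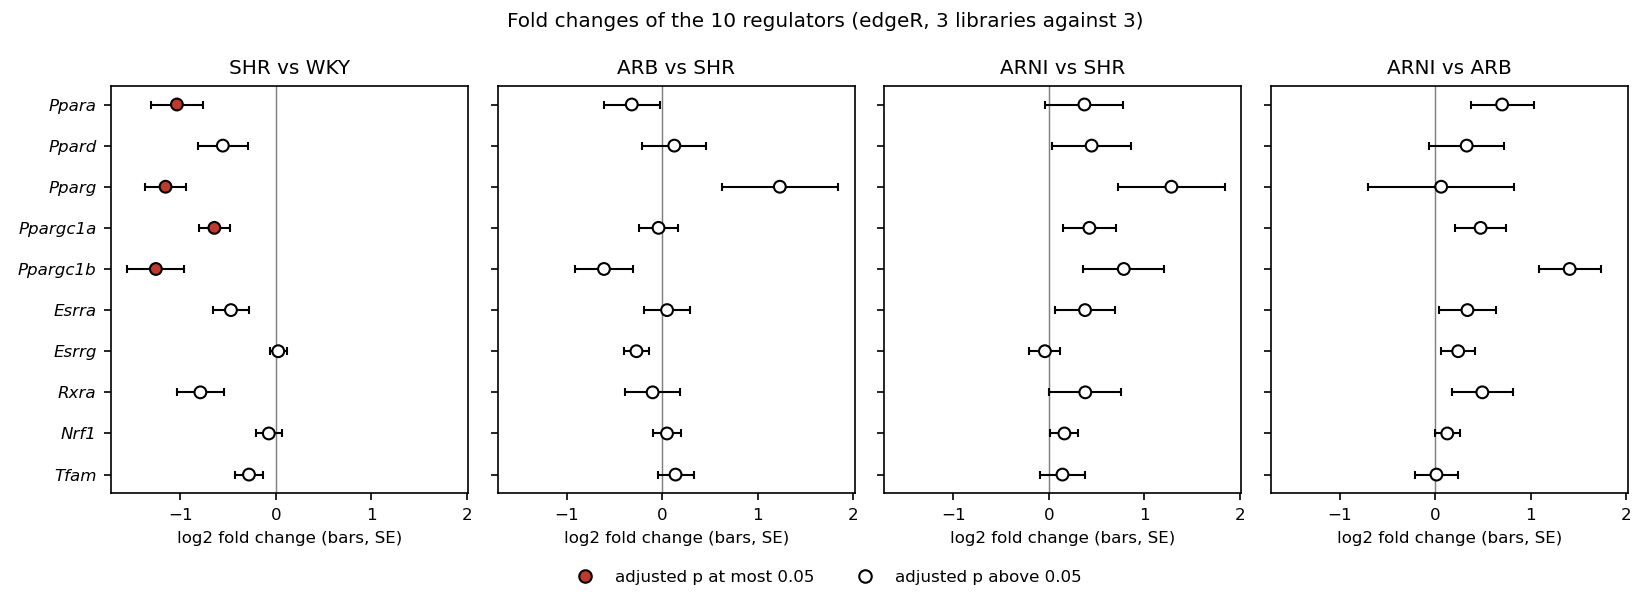
Log2 fold changes of the 10 regulators (x axis) with their SE in the 4 comparisons, with red points for an adjusted p of at most 0.05. The 4 called members, all lower, are in SHR vs WKY, and the error bars of Pparg are the widest wherever a treated group enters.

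**Figure D3:**
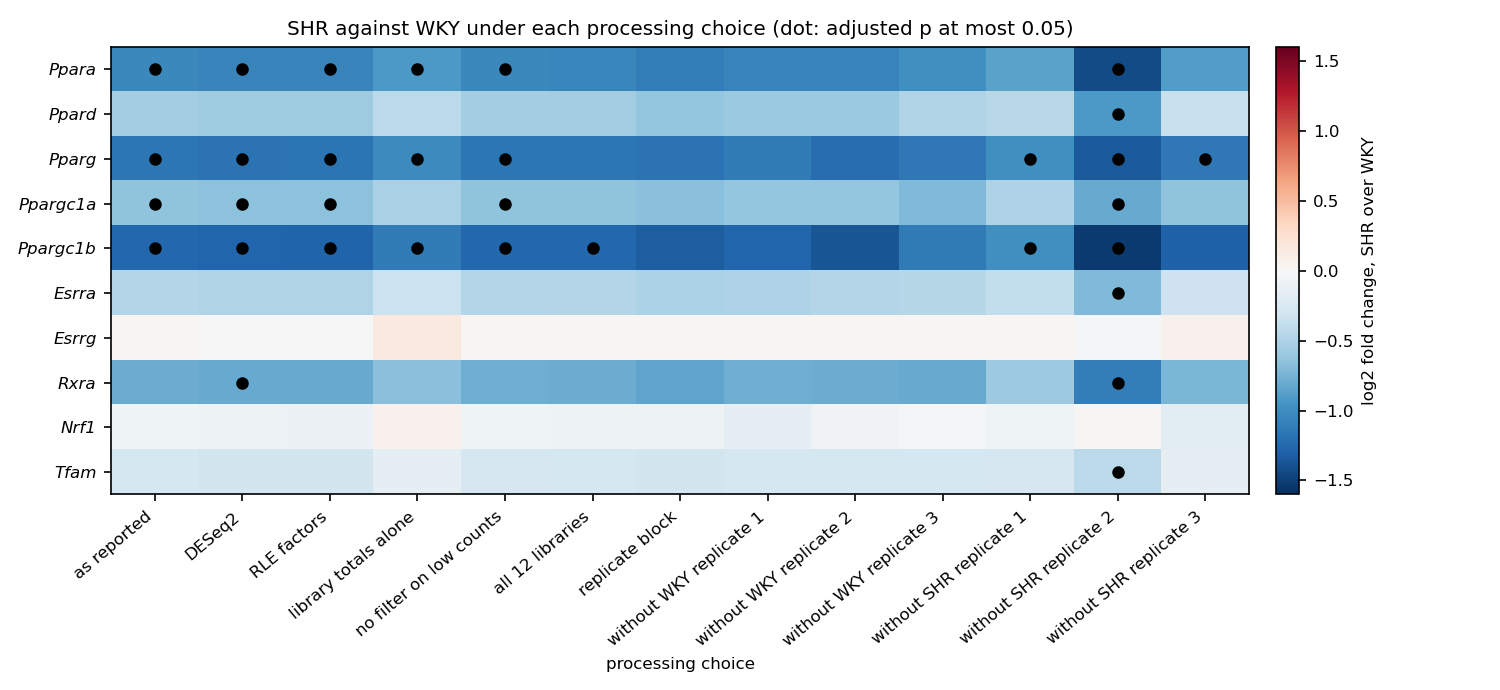
Log2 fold change of SHR over WKY (colour) for the 10 regulators (rows) under each processing choice (columns), with a dot where the adjusted p was at most 0.05. The column without SHR 2 has 8 dots and the columns without a WKY library have none.

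Leaving out SHR 2 moved the count of called members from 4 to 8, more than any change of tool or scaling did. Leaving out any WKY library, or taking the replicate number as a block, moved it from 4 to 0. SHR 2 held the highest value of its group for 9 of the 10 members, and for 26.6% of the 14452 genes that passed the filter over the 12 libraries. ARNI 2 was the highest of its group for 7 of the 10, where 24.4% of all genes were, and ARB 3 for 5 of the 10, where 30.4% were. These are the 3 libraries of SHR rats with Myl2 above 1000 CPM. In the 6 SHR-strain libraries with Myl2 of at most 24.2 CPM, Ppara ranged from 86.7 to 150 CPM, Rxra from 16.7 to 25.1 CPM, Ppargc1a from 80.0 to 112 CPM and Ppargc1b from 8.49 to 19.4 CPM. In ARNI 2 these genes were at 212, 40.5, 164 and 32.8 CPM, next to WKY ranges of 231 to 257, 37.2 to 38.9, 132 to 153 and 26.6 to 36.2 CPM. Rxra and Ppargc1a were higher in ARNI 2 than in any WKY library, Ppargc1b was within the WKY range and Ppara was below it. The level of Cd36 in ARNI 2 was below that of every WKY library. ARB 3 did not share the pattern in full, with Ppargc1b at 8.40 CPM, the lowest value of the 12 libraries, beside Ppard at 139 CPM and Tfam at 45.8 CPM. The part of the chamber markers in these results was not tested.

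**Figure D4:**
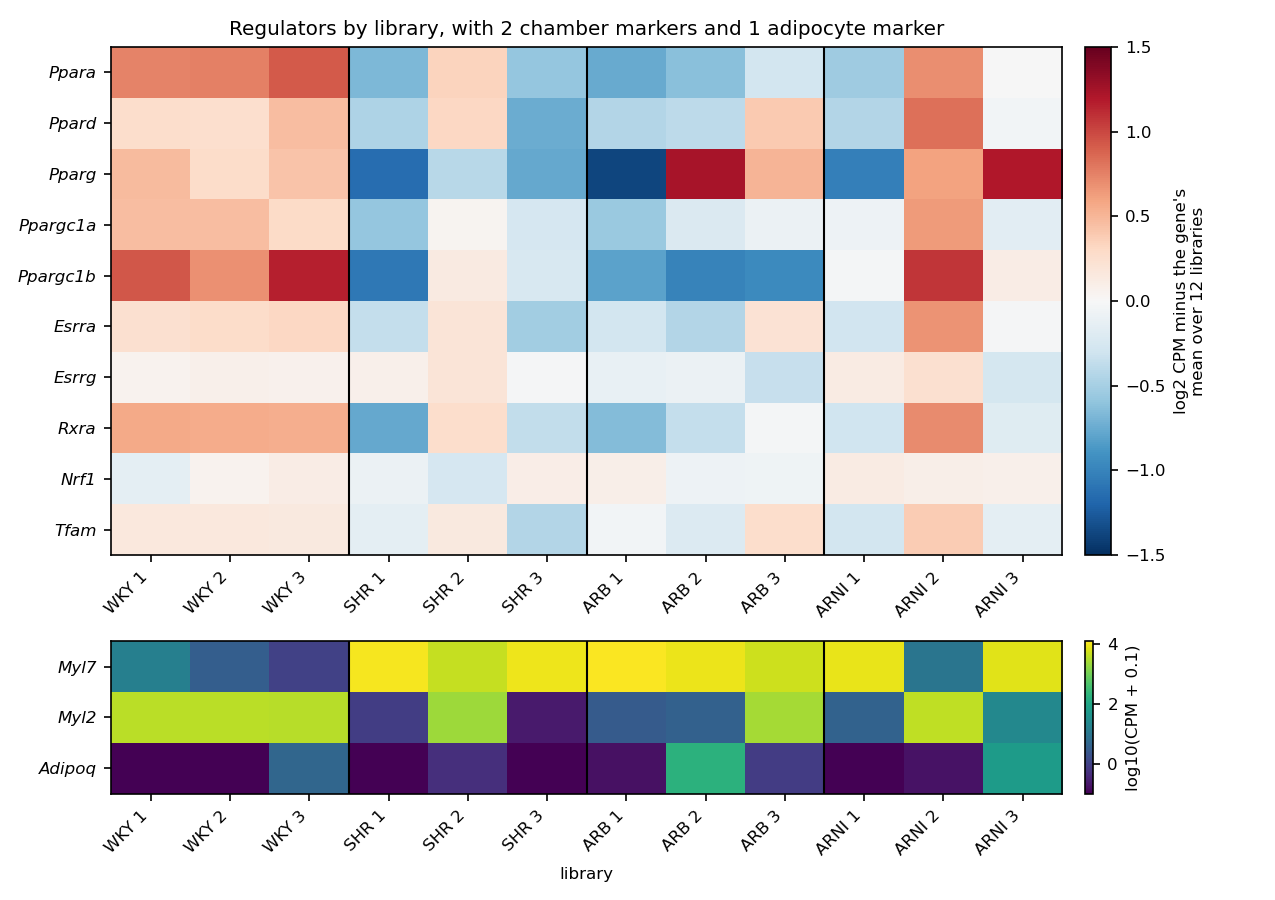
Log2 CPM of the 10 regulators, on the TMM scale and relative to each gene's mean over the 12 libraries (upper panel), above the levels of Myl7, Myl2 and Adipoq as log10(CPM + 0.1) (lower panel). ARNI 2 has the colours of the WKY libraries in the rows of Ppara, Ppargc1a, Ppargc1b and Rxra, and Pparg is darkest red in ARB 2 and ARNI 3, the libraries with Adipoq of 192 and 61.7 CPM.

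The second comparison asked whether valsartan changed the regulators in SHRs. None of the members was called in ARB vs SHR, as none of the 13979 genes tested was (0% called; 225 genes had an unadjusted p under 0.05 with edgeR, and DESeq2 called 3 genes and 0 members). No member had an unadjusted p under 0.05 in the edgeR fit reported here. With DESeq2 Pparg had one (unadjusted p = 0.0414) but was not called. The log2 fold changes of the members had a median of 0.00, with 5 lower and 5 higher. Of the members 1, Esrrg, had groups that did not overlap, where 5.39% of all genes did so. Esrrg was at 68.3, 75.6 and 54.2 CPM in ARB, all below the 79.7 to 82.7 CPM of SHR, with a log2 fold change of -0.27 (SE 0.13, adjusted p = 0.9999, edgeR). Without SHR 2 and ARB 3, the libraries with ventricular markers, it was -0.13 (SE 0.11).

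Pparg had the largest value in that comparison. It was at 2.71, 18.3 and 9.51 CPM in ARB, so that 1 library lay below and the other 2 above all SHR libraries. The log2 fold change of 1.23 had an SE of 0.61 (adjusted p = 0.9999, edgeR). ARB 2, with the 18.3 CPM, was the library with adipocyte markers, with Plin1 at 68.9 CPM and a summed level of 676 CPM over the 9 markers against 208 and 218 CPM in ARB 1 and ARB 3. Without ARB 2 the log2 fold change was 0.58 (SE 0.57). ARB 3 had 9.51 CPM of Pparg beside 0.713 CPM of Adipoq, and the part of adipocyte RNA was not tested.

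Ppargc1b was at 9.99, 9.42 and 8.40 CPM in ARB, a narrow range below the SHR mean of 14.4 ± 5.30 CPM (SD, n = 3), but above the 8.49 CPM of SHR 1 in 2 of 3 libraries. The log2 fold change was -0.61 (SE 0.30, adjusted p = 0.9999, edgeR), and -0.30 without SHR 2 and ARB 3 (SE 0.32). Ppara was at 86.7, 103 and 113 CPM, a log2 fold change of -0.32 that turned to 0.08 without SHR 2. The other 6 members had log2 fold changes between -0.10 and 0.14, all smaller than their SE.

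The third comparison asked the same of sacubitril/valsartan. None of the members was called in ARNI vs SHR (0% of 13955 genes called; 227 genes and 0 members had an unadjusted p under 0.05 with edgeR, and DESeq2 called 9 genes and 0 members). No member had groups that did not overlap, against 6.56% of all genes. The median log2 fold change of the members was 0.38, with 9 higher and 1, Esrrg, lower. Same-numbered libraries of these groups deviated together, and with the replicate number as a block 6 members had an unadjusted p under 0.05 (5.24% of all genes), though none was called. They were Ppara, Pparg, Ppargc1a, Ppargc1b, Esrra and Rxra, each higher in ARNI. The lowest of their p-values was that of Ppargc1b (unadjusted p = 0.00921, adjusted p = 0.844, edgeR). The labels give the replicate numbers no shared source. SHR 2 and ARNI 2, which share a number, were both high in Myl2, at 2298 and 4161 CPM. The part of these markers in the result with the block was not tested. Ppara was at 101, 212 and 150 CPM in ARNI, a log2 fold change of 0.37 (SE 0.41), and at -0.02 without ARNI 2 (SE 0.36, adjusted p = 0.9997, edgeR). Ppargc1a was at 112, 164 and 109 CPM, all above the SHR mean of 102 ± 19.3 CPM (SD, n = 3), a log2 fold change of 0.42 (SE 0.28, adjusted p = 0.999, edgeR) that was 0.12 without ARNI 2 (SE 0.20). Rxra, at 22.5, 40.5 and 25.1 CPM, and Ppard, at 83.3, 180 and 113 CPM, had log2 fold changes of 0.38 and 0.45, and of -0.02 and -0.01 without ARNI 2. ARNI 2 is the library without atrial markers, and with both ARNI 2 and SHR 2 left out Ppara was at 0.37 (SE 0.22), Ppard at 0.36 (SE 0.20) and Rxra at 0.30 (SE 0.20).

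Pparg was again the member with the largest value, at 3.48, 9.75 and 17.0 CPM in ARNI. The libraries differed more among themselves than the groups did, and the log2 fold change was 1.28 (SE 0.56, adjusted p = 0.999, edgeR). The 17.0 CPM belonged to ARNI 3, which had Plin1 at 99.5 CPM and Ucp1, the marker of brown fat, at 182 CPM, and without it the log2 fold change was 0.77 (SE 0.55). ARNI 2, with 9.75 CPM of Pparg, had Adipoq at 0.0786 CPM and Plin1 at 0. Esrra, at 88.9, 154 and 110 CPM, had a log2 fold change of 0.38 (SE 0.31), and Esrrg, at 80.5, 78.0 and 63.5 CPM, one of -0.04 (SE 0.16). Nrf1, at 18.3, 15.9 and 18.3 CPM, and Tfam, at 33.8, 47.3 and 37.9 CPM, had log2 fold changes of 0.16 (SE 0.15) and 0.14 (SE 0.23).

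The fourth comparison set the combination against valsartan alone. Of the 13948 genes tested 0% were called (539 had an unadjusted p under 0.05 with edgeR, and DESeq2 called 23 genes), and 0 members were called by either tool. Ppargc1b was the 1 member with an unadjusted p under 0.05 and the 1 member whose groups did not overlap, where 10.5% of all genes did not. It was at 9.99, 9.42 and 8.40 CPM in ARB and at 17.2, 32.8 and 19.4 CPM in ARNI. Even the lowest ARNI library was above the highest ARB library, and ARNI 2, the library without atrial markers, was the highest. The means were 9.27 ± 0.802 and 23.1 ± 8.43 CPM (SD, n = 3), a log2 fold change of 1.41 (SE 0.33). The adjusted p was 0.993 with edgeR and 0.0940 with DESeq2, and it ranged from 0.0940 to 0.9999 over 14 alternative settings. Without ARB 3 and ARNI 2 the log2 fold change was 0.93 (SE 0.17, adjusted p = 0.999, edgeR), and without ARB 2 and ARNI 3 it was 1.51 (SE 0.44).

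In both comparisons with SHR the control libraries were the same, and Ppargc1b had a log2 fold change of -0.61 in ARB and 0.78 (SE 0.42, adjusted p = 0.999, edgeR) in ARNI. The count of Ppargc1b relative to that of Ppargc1a was 0.175 to 0.273 in WKY, 0.105 to 0.158 in SHR, 0.0815 to 0.125 in ARB and 0.154 to 0.200 in ARNI. This ratio is free of library scaling, and every ARB value lay below every ARNI value, with ARNI 2 the highest at 0.200. It comes from the same counts as the fold changes, so it adds no separate evidence. No share over other pairs of genes was set beside it. All 10 members had a log2 fold change above 0 in ARNI vs ARB, with a median of 0.33 beside 0.02 for all genes. This direction did not hold for all of them without ARNI 2, the library without atrial markers. There Ppard was at -0.13, Esrra at -0.0053 and Tfam at -0.22, and the other members stayed above 0. Ppara was next after Ppargc1b at 0.70 (SE 0.33, adjusted p = 0.993, edgeR), and 0.43 without ARB 3 and ARNI 2 (SE 0.21). Tfam, at 0.01 (SE 0.22), and Pparg, at 0.06 (SE 0.76), turned below 0 with library totals alone.

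Other genes of the pathway were described by 4 lists with 128 genes in all. Among 40 partners and cofactors tested between SHR and WKY, 4 were called lower and 5 higher, with a median log2 fold change of 0.07 beside 0.01 for all genes. These shares can be read against the 8.26% of genes called lower and 12.3% called higher. Perm1, a muscle regulator induced by PGC-1 and ERR, was at 493, 528 and 525 CPM in WKY and 160, 325 and 220 CPM in SHR, and fell by 1.26 on the log2 scale (SE 0.27, adjusted p = 0.0259, edgeR). ARNI 2 had 504 CPM, against 159 to 261 CPM in the other treated libraries. Among the called genes that were higher, Nr1h3 encodes the oxysterol receptor LXR alpha, another RXR partner, with a log2 fold change of 1.53 (SE 0.16, adjusted p = 0.00405, edgeR). It was at 10.4 to 11.3 CPM in WKY, 25.9 to 39.7 CPM in SHR and 12.4 CPM in ARNI 2. Nrip1, a corepressor of nuclear receptors, rose by 0.92 (SE 0.18, adjusted p = 0.0189, edgeR), and Nr1d1, the clock repressor REV-ERB alpha, by 0.78 (SE 0.21, adjusted p = 0.0429, edgeR).

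Of 35 PPAR target genes tested, 9 were called lower and 2 higher, beside 8.26% and 12.3% of all genes. A log2 fold change below 0 was found for 33, and the median was -1.08. DESeq2 called 25 lower and 2 higher, where it called 9.68% of all genes lower. Pdk4, which blocks the entry of pyruvate into the mitochondria's citrate cycle, was at 176, 183 and 232 CPM in WKY and 32.4, 105 and 44.8 CPM in SHR (log2 fold change -1.81, SE 0.46, adjusted p = 0.0378, edgeR). It was at 222 CPM in ARNI 2 and 145 CPM in ARNI 3, and at 27.6 to 69.5 CPM in the other treated libraries. Angptl4, an inhibitor of lipoprotein lipase, fell by 2.17 on the log2 scale (SE 0.60, adjusted p = 0.0470, edgeR), from 4.77 to 7.29 CPM in WKY to 0.736 to 3.07 CPM in SHR. Its highest level was 19.3 CPM in ARNI 3, the library with Ucp1. The fatty acid transporter Cd36, counted here but defective in some SHR colonies, fell by 3.89 (SE 0.48, adjusted p = 0.00600, edgeR). Its level was 285 CPM in ARNI 2, against 1382 to 1584 CPM in WKY. Ucp2, a mitochondrial carrier, went the other way, from 178 to 214 CPM in WKY to 557 to 826 CPM in SHR (log2 fold change 1.79, SE 0.17, adjusted p = 0.00317, edgeR), and was at 352 CPM in ARNI 2.

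Of 30 ERR target genes tested, 2 were called lower and 0 higher, beside 8.26% and 12.3% of all genes. The log2 fold change was below 0 for 29, and the median was -0.70. Here the tools parted, with 16 genes called lower by DESeq2, beside its 9.68% of all genes. Ogdh, a subunit of the oxoglutarate dehydrogenase of the citrate cycle, was at 2156, 2190 and 2407 CPM in WKY and 654, 1521 and 789 CPM in SHR (log2 fold change -1.30, SE 0.36, adjusted p = 0.0456, edgeR). Fh, the fumarase of the same cycle, had a log2 fold change of -0.91 (SE 0.25, adjusted p = 0.0448, edgeR). Both were higher in SHR 2 than in the other SHR libraries, Fh with 305 CPM against 180 and 185 CPM.

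Of 20 genes of mitochondrial DNA maintenance and transcription, 3 were called lower and 0 higher, beside 8.26% and 12.3% of all genes. The median was -0.40, and DESeq2 called 5 lower, beside its 9.68% of all genes. Polrmt, the RNA polymerase of mitochondria and the enzyme that Tfam recruits, was at 50.7, 48.9 and 50.5 CPM in WKY and 24.6, 33.8 and 27.2 CPM in SHR. It had a log2 fold change of -0.94 (SE 0.15, adjusted p = 0.0126, edgeR). Mfn2 and Mfn1, which fuse outer mitochondrial membranes, had log2 fold changes of -0.91 (SE 0.21, adjusted p = 0.0299, edgeR) and -0.72 (SE 0.14, adjusted p = 0.0185, edgeR). Mfn2 was at 539 CPM in ARNI 2, close to the 557 to 581 CPM of WKY and above the 269 to 372 CPM of the other treated libraries.

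**Figure D5:**
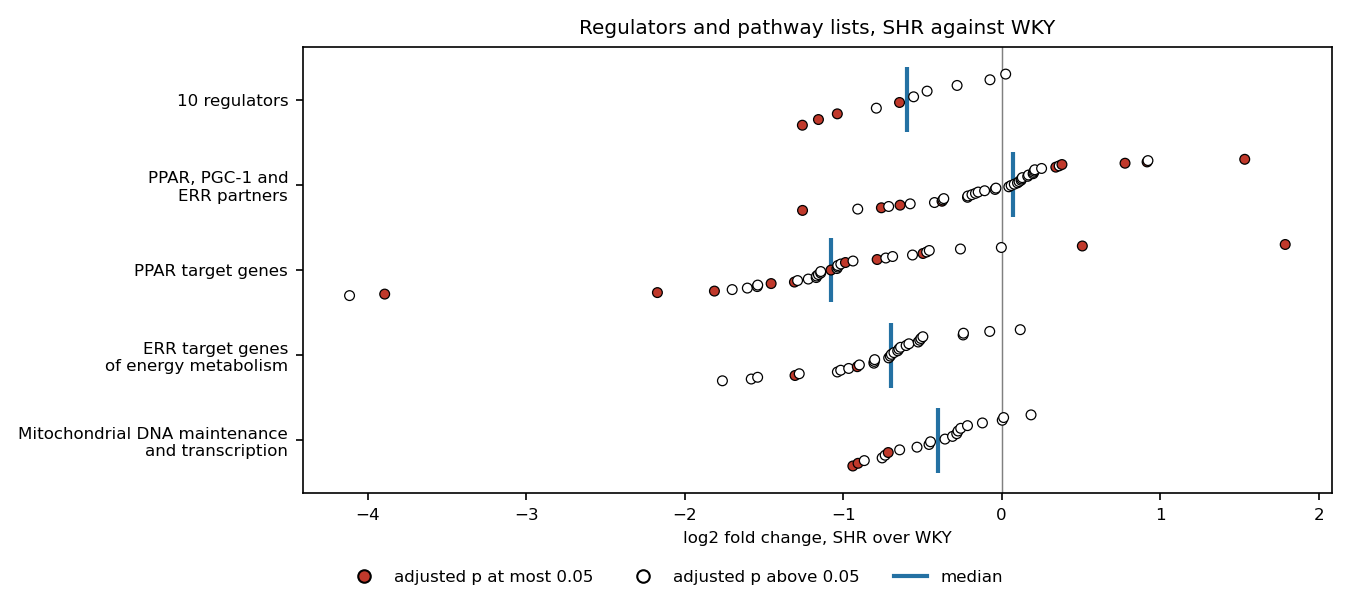
Log2 fold change of SHR over WKY (x axis) for the 10 regulators and for each tested gene of the 4 lists (rows), with red points for an adjusted p of at most 0.05 and a blue line at the median. The medians are -0.60 for the regulators, 0.07 for the partners, -1.08 for the PPAR targets, -0.70 for the ERR targets and -0.40 for the mitochondrial DNA genes.

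Without single libraries these counts moved widely. Leaving out SHR 2 gave 32 PPAR targets and 28 ERR targets called lower, beside 18.6% of all genes, and leaving out any 1 of the WKY libraries gave 1 and 0, beside at most 142 of all genes. In the 3 comparisons of treated groups edgeR called 0 of the 125 list genes tested in each. An unadjusted p under 0.05 with edgeR was reached by 1 list gene in ARB vs SHR, 2 in ARNI vs SHR and 5 in ARNI vs ARB. Of all genes tested 1.61%, 1.63% and 3.86% reached it, so the list genes were near these shares. DESeq2 called 1 list gene, Txnip, in ARNI vs ARB. Between ARNI and SHR, the median was 0.53 for the PPAR targets and 0.35 for the ERR targets, beside 0.00 for all genes. Above 0 were 33 of 35 and 29 of 30 genes. The part of ARNI 2, the library without atrial markers, in these values was not tested. Between ARB and SHR the medians were -0.09 and 0.09, beside -0.01 for all genes.

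The likeness between genes was measured by Pearson's r of log2 CPM over the 12 libraries, among 14452 genes. It is a description, since the libraries share groups, chamber marker levels and depth. Ppara was at r = 0.91 with both PGC-1 genes and at 0.96 with Rxra, and Ppard at 0.98 with Esrra. Rxra was the gene most like Ppargc1a of all (r = 0.974, Spearman's rho = 0.979), followed by Lpin1 (r = 0.967), which encodes a coactivator of PGC-1 and Ppara. Nrf1, Pparg and Esrrg were less like the rest. Nrf1 had values of r from -0.26 to 0.19 with the other 9, and Pparg and Esrrg each from -0.29 to 0.53.

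Ppara was most like Mmut (r = 0.991), the methylmalonyl-CoA mutase of propionate breakdown, Ppfibp1 and Hspd1, a mitochondrial chaperonin (0.990 and 0.989). Ppard was most like Fbxw5 (0.990), and Esrra most like the mitochondrial ribosomal gene Mrpl37, Tmem143 and Imp4 (0.993, 0.992 and 0.990). Tfam was nearest to the proteasome gene Psma7, the mitochondrial ribosomal gene Mrpl2 and Eef1a2 (0.988, 0.988 and 0.987). Rxra was nearest to Osbpl1a, Lrpprc, which stabilises mitochondrial mRNA, and Ablim1 (0.982, 0.981 and 0.981). For Pparg the nearest genes were Ces1f, Agpat2, which makes phosphatidic acid on the way to triglycerides, and Pex11a, a peroxisomal gene (0.941, 0.939 and 0.923). Ppargc1b was nearest to Mfap1a, Usp24 and Pi4k2a (0.973, 0.973 and 0.972), Esrrg to LOC102555814, Ahi1 and Rad54l2 (0.959, 0.913 and 0.911), and Nrf1 to Fanci, LOC108348085 and Nup188 (0.860, 0.834 and 0.801).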

How the data were processed

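RNA of 12 rats, from tissue labelled as left atrium, was sequenced with single-end reads. The authors filtered the reads, mapped them with HISAT2 2.0.4 and Bowtie2 2.2.5 (Rnor_6.0, per the labels) and deposited RSEM's expected counts for each gene, not normalized. Since RSEM shares out reads that match several genes, 23.6% of the values in the table are fractions. The table lists 37246 genes by NCBI identifier, 21239 with counts. Its 2 columns of the authors' own comparison of SHR with WKY (log2 fold change and p-value) were not used.

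The expected counts were rounded, filtered with filterByExpr, scaled by TMM and compared for each pair of groups (6 libraries) by the quasi-likelihood test of edgeR (4.0.16, in R 4.3.3), with Benjamini-Hochberg adjustment over all genes tested and a threshold of 0.05. Levels are unscaled CPM, and log2 CPM for likeness used a prior count of 1. The alternatives were DESeq2 1.42.0, RLE factors, library totals alone, no filter, a fit of all 12 libraries, the replicate number as a block and each library left out. Same-numbered libraries deviated together in ARNI vs SHR (correlations of 0.19 to 0.51) but not in every pair of the other comparisons, and the labels give the numbers no shared source. The steps were tested on simulated data. Members and lists were chosen with earlier results of these data known. The text names all members, the up to 4 called genes of each list with the largest change in SHR vs WKY, the 3 genes most like each member (for Ppard only the first is reported here), and markers of lists that stood apart in a library. Cd36 served also as a check of the strain. Sequences are from RefSeq (GRCr8), matched by symbol. No protein sequences were used here. Figures were drawn with matplotlib 3.10.9.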

Additional observations from a re-analysis of the deposited data

Results flagged for a closer look

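Ppargc1b lay on opposite sides of the SHR mean in the treated groups, though both overlapped the SHR libraries, at 8.49 to 18.7 CPM. Neither group was called against SHR. On the TMM scale all 3 ARB libraries lay below the SHR mean and all 3 ARNI libraries above it. By this rule Ppargc1b was flagged, and no share of all genes was set beside it. The log2 fold change of ARNI over ARB was 1.41 (SE 0.33). The adjusted p for that difference was 0.993 with edgeR's quasi-likelihood test and 0.0940 with DESeq2. The highest ARNI value, 32.8 CPM, was that of ARNI 2, the library without atrial markers, whose part was not tested, and without ARNI 2 the log2 fold change was 0.96 (SE 0.16, adjusted p = 0.942, edgeR).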

How the results depend on the processing

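The number of members called between SHR and WKY was 4 and became 5 with DESeq2, 3 with library totals alone, 4 with RLE factors or no filter, 1 in the fit of all 12 libraries and 0 to 8 on leaving out 1 library. Among all genes 2837 were called, 1178 in the fit of all 12 libraries and 415 to 5310 without 1 library. With the replicate number as a block 0 members and 1030 genes were called between SHR and WKY, where same-numbered libraries did not deviate together (correlations of -0.07 to 0.03). In ARNI vs SHR, where they did, 0 members were called with and without the replicate block, and in ARNI vs ARB the log2 fold change of Tfam was -0.010 with it. DESeq2 called 7 partners, 25 PPAR targets, 16 ERR targets and 5 mitochondrial DNA genes lower, beside 9.68% of all genes. Without 1 library in turn the partners called ranged from 0 to 10 lower and 1 to 7 higher, PPAR targets from 1 to 32 lower and 1 to 2 higher, ERR targets from 0 to 28 lower and mitochondrial DNA genes from 0 to 10 lower. In the 3 comparisons of treated groups 0 members were called under every setting run.

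Directions that turned were all of members that had not been called. With library totals alone the log2 fold change of Nrf1 in SHR vs WKY was 0.070, and in ARNI vs ARB that of Pparg was -0.012 and that of Tfam -0.055. Tfam in ARNI vs ARB was also at -0.0073 in the fit of all 12 libraries, -0.10 without ARB 3 and ARNI 2 and -0.018 without ARB 2 and ARNI 3. In ARB vs SHR without SHR 2 and ARB 3, settings chosen after seeing the data like the other pairs, Ppargc1a was at 0.034, Rxra at 0.061 and Nrf1 at -0.0026. The remaining turns came on leaving out 1 library. In SHR vs WKY, Esrrg ranged from -0.026 to 0.074 and Nrf1 from -0.17 to 0.013. In ARB vs SHR, Ppara ranged from -0.50 to 0.077, Ppard from -0.18 to 0.49, Ppargc1a from -0.18 to 0.13, Esrra from -0.15 to 0.29, Rxra from -0.31 to 0.22 and Nrf1 from -0.032 to 0.15. In ARNI vs SHR, Ppara ranged from -0.023 to 0.76, Ppard from -0.0083 to 0.81, Esrrg from -0.15 to 0.10, Rxra from -0.016 to 0.70 and Tfam from -0.087 to 0.30. In ARNI vs ARB, Ppard ranged from -0.13 to 0.64, Pparg from -0.45 to 0.71, Esrra from -0.0053 to 0.54 and Tfam from -0.22 to 0.14. The cause of these turns was not tested. Depth limits Pparg most, with as few as 41 reads, while 3 libraries a group and the unequal chamber markers limit all members.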
